A study of Homo sapiens with 11 samples.

Results

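The glutathione peroxidases and the thioredoxin system were followed in ARPE-19 cells, a long-used human line derived from the retinal pigment epithelium (RPE), after the reprogramming factors Oct4, Sox2 and Klf4 were expressed alone or together. By its title, the series concerns oxidative resilience of the RPE apart from reprogramming. The genes were taken by symbol from the deposited table, and 10 of its 60605 features belonged to the set: GPX1, GPX3, GPX4, GPX7, GPX8, TXN, TXN2, TXNRD1, TXNIP and MSRB3. All 10 were present and all 10 passed the filter on low values described with the processing. Polyadenylated RNA had been sequenced from stable ARPE-19 lines after 4 days of expression of an open reading frame. The control line expressed GFP, a fluorescent protein (3 libraries). The other lines expressed Oct4, Sox2, Klf4 or all of them together, called OSK, with 2 libraries each, so 11 libraries formed 5 groups. The library names of every factor line carry the tag mC, which those of the GFP line lack. What the tag stands for cannot be told apart from the factors in comparisons with GFP. No line was left without an introduced reading frame. The vector and promoter, the species of the reading frames and whether a line was a single clone are not given in the sources used here. Nothing in the labels says that replicates came from separate cultures, so p-values measure only the spread between these libraries, which may be technical.

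Cells remove hydrogen peroxide and lipid peroxides with enzymes that draw electrons either from glutathione or from thioredoxin. Most glutathione peroxidases use glutathione. GPX1 works in the cytosol and mitochondria, GPX4 reduces peroxides of membrane phospholipids and so restrains ferroptosis, GPX3 is secreted, and GPX7 and GPX8 sit in the endoplasmic reticulum (ER) beside the machinery that folds proteins. Thioredoxin (TXN in the cytosol, TXN2 in mitochondria) reduces protein disulfides and is itself reduced by a thioredoxin reductase, of which TXNRD1 is the cytosolic form. TXNIP is an arrestin-like protein that binds thioredoxin and also lowers glucose uptake, and MSRB3 repairs oxidised methionine. GPX1, GPX3, GPX4 and TXNRD1 contain selenocysteine. RPE cells face strong light and oxygen and take up oxidised outer segments of photoreceptors, so this defence has long been studied in them.

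Recovered reads ranged from 15053300 to 19791775 per library. GFP replicate 1 and OSK replicate 1 stood apart from the other 9 libraries. They detected 42956 and 32493 features, against 25853 to 26971 elsewhere, and had reads on 67.7% and 23.0% of olfactory receptor genes, which are known from neurons of the nose, against 4.94% to 8.15%. Calls on the 10 genes that changed without either library, and list counts that did, are also given without it. The introduced factors matched the labels: the lowest library of a line given POU5F1 (Oct4), SOX2 or KLF4 held 19020, 17582 and 22142 normalised counts of it, and the highest library of any other line held 446, 197 and 248. Of 14 RPE marker genes, 12 had at least 10 normalised counts in every GFP library, but RPE65, the visual cycle isomerase, had at most 3 reads in each. Summed RPE markers ran from 14791 to 18572 in GFP, 8329 to 9220 in Oct4, 4835 to 4869 in Sox2, 11086 to 12749 in Klf4 and 8238 to 8453 in OSK. Summed markers of cycling cells (8 genes) ran from 1184 to 1379 in GFP, 1291 to 1415 in Oct4, 3099 to 3201 in Sox2, 6779 to 8112 in Klf4 and 6170 to 6527 in OSK. Both sums moved with the lines, and their part in the results on redox genes was not tested. In bulk RNA, fewer cells of a type and less RNA per cell cannot be told apart.

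In control cells the set was unequal in abundance. On the scale of reads per kilobase of exon scaled to library depth (RPKM), GFP cells held 442 ± 46.1 of GPX3 (SD, n = 3), 155 ± 8.74 of GPX4, 151 ± 4.94 of TXNRD1 and 72.6 ± 6.88 of GPX1. Each was on average at or above the 97.4th percentile of the genes with a length that passed the filter on low values. The thioredoxins were lower, at 34.3 ± 1.69 for TXN and 19.9 ± 0.924 for TXN2. MSRB3 (7.13 ± 0.0732), GPX8 (4.98 ± 0.671) and TXNIP (1.82 ± 0.217) were lower still, and GPX7 was near the limit of detection at 0.437 ± 0.129. The most abundant genes of the control cells included the 2 that were lower than GFP in every other line, GPX3 and TXNRD1.

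Each line was compared with GFP by limma on log2(normalised count + 1), and a gene was called at an adjusted p-value under 0.05. The log2 changes below are on that scale, on which low genes show smaller changes than they had. In the Oct4 line 6 of the 10 genes were called, against 37.3% of all 18828 genes tested, with 2 higher (20.1% of all genes) and 4 lower (17.2%). In the Sox2 line 6 were called (background 41.6%), 2 higher (21.7%) and 4 lower (19.9%). In the Klf4 line 7 were called (33.5%), 5 higher (17.6%) and 2 lower (16.0%). In OSK 8 were called (39.7%), 4 higher (19.7%) and 4 lower (20.0%). The median log2 change of the 10 genes was -0.08, -0.00, 0.25 and 0.05 in Oct4, Sox2, Klf4 and OSK, and that of all genes was -0.02, -0.02, -0.02 and -0.01. The 4 comparisons share the GFP libraries and are not independent of each other. GPX3 and TXNRD1 were lower in all 4 lines, and no gene was called higher in all 4. The calls that held in each of the alternatives tried were 4 of 6 in Oct4, 5 of 6 in Sox2, 5 of 7 in Klf4 and 4 of 8 in OSK.

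**Figure D1:**
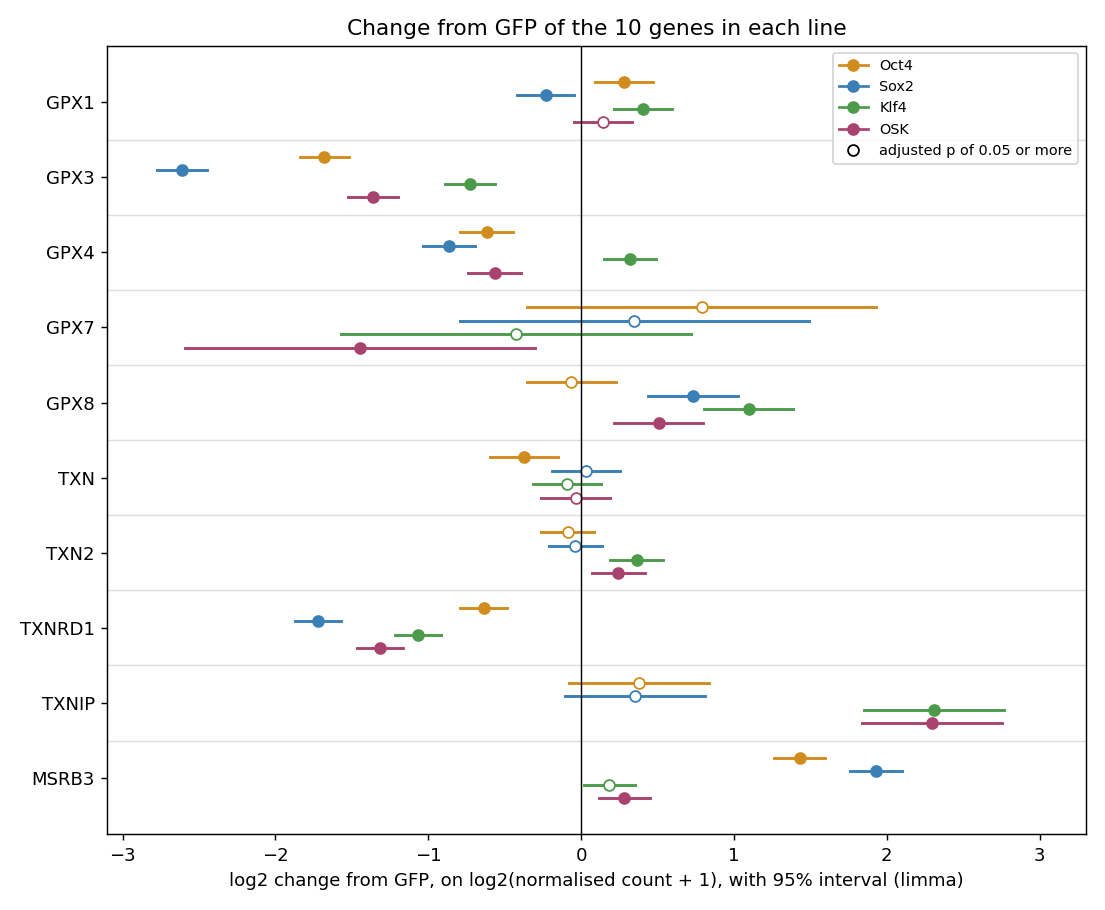
Log2 change from GFP of the 10 genes in each line (horizontal axis, log2(normalised count + 1) scale), with 95% intervals from limma. Filled points passed an adjusted p-value of 0.05. GPX3 and TXNRD1 lie left of 0 in all 4 lines, TXNIP lies right of 0 in Klf4 and OSK at 2.31 and 2.30, and MSRB3 lies farthest right in Oct4 and Sox2.

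**Figure D2:**
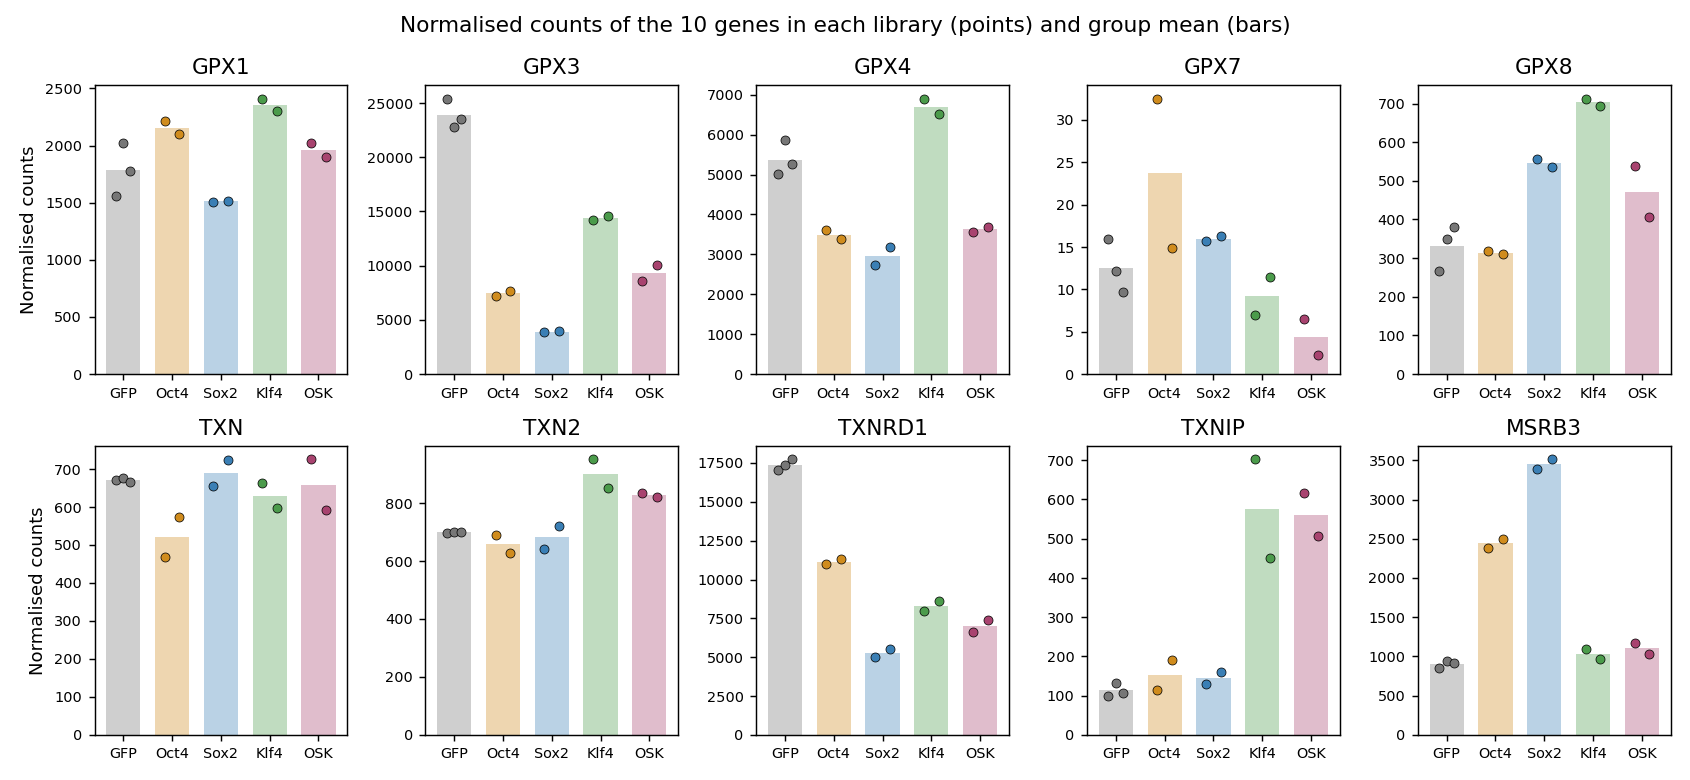
Normalised counts of each gene in all 11 libraries (vertical axes linear and from 0, 1 panel a gene, points for libraries, bars for group means). The GFP libraries of GPX3 lie between 22825 and 25404, above every library of the other lines.

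GPX3, the secreted peroxidase, fell in every factor line and fell most with Sox2. The gene lies on the plus strand at chr5:151020591-151028988 (GENCODE 29, GRCh38). Its normalised counts were 25404, 22825 and 23548 in the GFP libraries, 7230 and 7694 in Oct4, 3858 and 3970 in Sox2, 14253 and 14629 in Klf4 and 8612 and 10022 in OSK. No library of a factor line reached the GFP range, and each line had its own range. The log2 change from GFP was -1.68 in Oct4 (SE 0.08; limma adjusted p = 1.22e-10), -2.61 in Sox2 (adjusted p = 7.29e-13), -0.73 in Klf4 (adjusted p = 2.04e-06) and -1.36 in OSK (adjusted p = 1.2e-09). The order from high to low was GFP, Klf4, OSK, Oct4 and Sox2. Of the neighbours in that order, OSK and Oct4 were closest (log2 difference 0.32, SE 0.08; limma adjusted p = 0.00634), and that difference was lost without Oct4 replicate 1 (0.27; limma adjusted p = 0.0647), without OSK replicate 2 (0.21; adjusted p = 0.129) and with TMM scaling over all features (edgeR adjusted p = 0.0864). The summed RPE markers were also lowest in Sox2 and highest in GFP. The median log2 change of the 12 RPE markers tested ordered the lines otherwise. It was -0.88 in Oct4, -0.90 in Sox2, -0.29 in Klf4 and -1.15 in OSK.

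GPX4, the phospholipid peroxidase, fell with Oct4, Sox2 and OSK and was higher with Klf4. Its normalised counts were 5007, 5868 and 5254 in GFP, 3616 and 3379 in Oct4, 2730 and 3177 in Sox2, 6899 and 6506 in Klf4 and 3562 and 3685 in OSK. The Klf4 libraries were above all GFP libraries, and those of the other 3 lines were below. The log2 change was -0.62 in Oct4 (SE 0.08; limma adjusted p = 1.63e-05), -0.87 in Sox2 (adjusted p = 3.14e-07), 0.32 in Klf4 (adjusted p = 0.00582) and -0.57 in OSK (adjusted p = 3.43e-05). The rise with Klf4 was lost without Klf4 replicate 1 (0.28; limma adjusted p = 0.0723) and with TMM scaling over all features (edgeR adjusted p = 0.06). OSK lay below Klf4 by 0.89 on the log2 scale (SE 0.09; limma adjusted p = 2.06e-06), while OSK and Oct4 differed by 0.05 (95% interval -0.14 to 0.24; limma adjusted p = 0.689).

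GPX1, the cytosolic and mitochondrial enzyme, varied less: its highest group mean, in Klf4, was 1.56 times its lowest, in Sox2. Normalised counts were 1556, 2026 and 1778 in GFP, 2214 and 2099 in Oct4, 1506 and 1517 in Sox2, 2410 and 2300 in Klf4 and 2021 and 1903 in OSK. Oct4 and Klf4 lay above the GFP range, Sox2 just below it and OSK inside it. The rise with Klf4 was 0.41 on the log2 scale (SE 0.09; limma adjusted p = 0.0021) and held in every alternative. In Oct4 the change was 0.28 (limma adjusted p = 0.0213), and the call was lost in 8 of the 16 alternatives. Among these were fits without GFP replicate 1 (0.18; limma adjusted p = 0.0502), Oct4 replicate 1 (0.24) or Oct4 replicate 2 (0.32). TMM scaling over all features also lost it (edgeR adjusted p = 0.113). In Sox2 the change was -0.23 (limma adjusted p = 0.0462), and the call was lost in 9 of the 16 alternatives. Among these were fits without GFP replicate 2 (-0.14; limma adjusted p = 0.193) or 3 (-0.23; adjusted p = 0.0875). Fits without Sox2 replicate 1 (-0.23) or 2 (-0.24) also lost it, as did TMM scaling over all features (edgeR adjusted p = 0.351). OSK did not pass (0.14, 95% interval -0.05 to 0.33; limma adjusted p = 0.229) but did without GFP replicate 2 (0.24; adjusted p = 0.0299). GPX1 has processed copies in the genome, so the split of reads between copies is uncertain. The 2 listed pseudogenes held at most 217 reads together in a library. That number covers only reads assigned to them and does not bound the uncertainty.

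Both ER-resident peroxidases were low in GFP. GPX8 rose with Sox2 and with Klf4. It had 267, 349 and 380 normalised counts in GFP, 318 and 310 in Oct4, 556 and 536 in Sox2, 712 and 694 in Klf4 and 539 and 406 in OSK. All Sox2, Klf4 and OSK libraries exceeded the highest GFP library, and Oct4 lay inside the GFP range. GPX8 rose by 0.73 in Sox2 (SE 0.14; limma adjusted p = 0.000416) and by 1.10 in Klf4 (adjusted p = 1.27e-05), both in every alternative. In OSK it was 0.51 higher (limma adjusted p = 0.00741), but the call was lost without OSK replicate 1 (0.30; adjusted p = 0.172), the library that stood apart, and without it and GFP replicate 1 (0.16; adjusted p = 0.336). Oct4 did not pass (-0.06, 95% interval -0.36 to 0.23; limma adjusted p = 0.755).

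GPX7, the other ER enzyme, had between 2 and 28 reads in a library, too few to order the lines. Its normalised counts were 15.9, 12.1 and 9.72 in GFP, 32.5 and 14.9 in Oct4, 15.7 and 16.3 in Sox2, 6.94 and 11.4 in Klf4 and 6.5 and 2.2 in OSK. Only the OSK change passed the test (-1.45, SE 0.54; limma adjusted p = 0.0431). It was lost without GFP replicate 1 (-1.28; adjusted p = 0.0735), 2 (-1.46; adjusted p = 0.079) or 3 (-1.60; adjusted p = 0.0505) and without OSK replicate 2 (-0.83; adjusted p = 0.366), and with edgeR and DESeq2.

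Per length, the pool of these 5 peroxidase transcripts shrank and became less dominated by the secreted form. Summed RPKM was 675 ± 38.8 in GFP (SD, n = 3), 317 ± 0.99 in Oct4 (n = 2), 231 ± 10.3 in Sox2, 543 ± 3.39 in Klf4 and 365 ± 15.1 in OSK. GPX3 made up 65.4% ± 3.38 of the sum in GFP, 41.4% ± 2.15 in Oct4, 31.7% ± 0.849 in Sox2, 47.0% ± 1.4 in Klf4 and 47.2% ± 2.98 in OSK. The lowest GFP library had 62.0% and the highest library of any other line 49.3%, so the shares did not overlap. In Sox2 the largest share was that of GPX4, at 37.4% ± 2.25, against 23.0% ± 1.87 in GFP. GPX1 went from 10.8% ± 1.43 in GFP to 26.5% ± 0.792 in Oct4 and 27.1% ± 1.12 in Sox2. These shares were not tested, and they follow from the changes of GPX3, GPX4 and GPX1 given above. They concern RNA, and GPX3 protein leaves the cell.

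**Figure D3:**
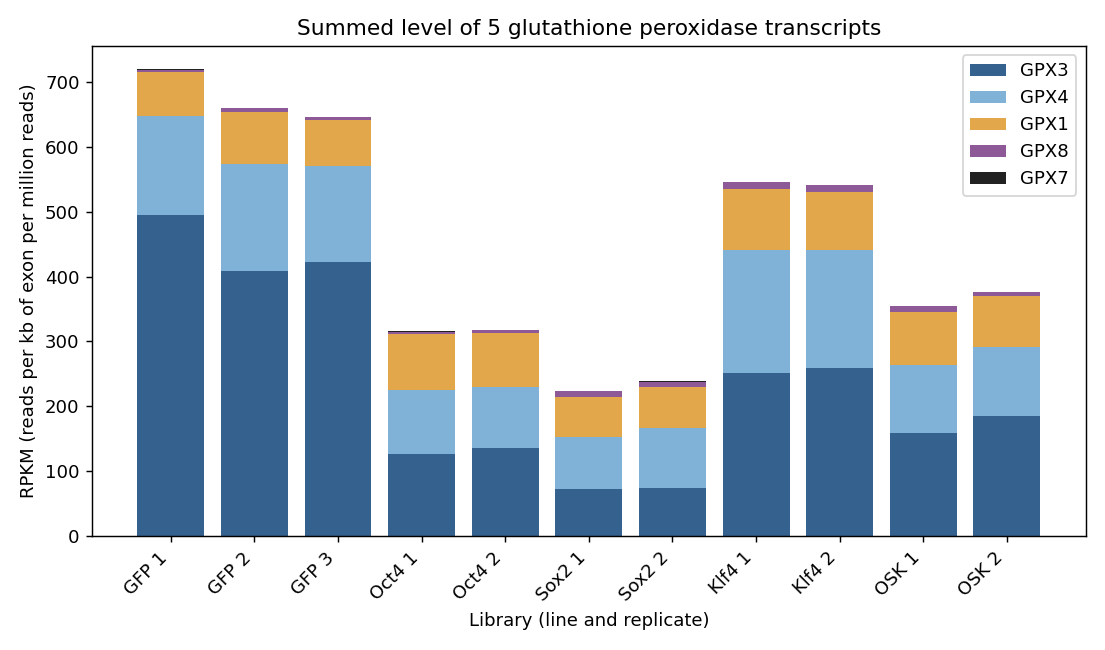
RPKM of the 5 glutathione peroxidase genes stacked for each of the 11 libraries (vertical axis from 0, grouped by line). GPX3 takes 65.4% of the sum in GFP on average and 31.7% in Sox2, while the summed height goes from 675 in GFP to 231 in Sox2.

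TXN, the cytosolic thioredoxin, passed the test in the Oct4 line and in no other. It had 672, 677 and 667 normalised counts in GFP, 469 and 575 in Oct4, 654 and 724 in Sox2, 663 and 598 in Klf4 and 725 and 592 in OSK. Both Oct4 libraries and both Klf4 libraries were below the lowest GFP library, and those of Sox2 and OSK lay on either side of the GFP range. The Oct4 change was -0.37 (SE 0.10; limma adjusted p = 0.0108) and was lost without Oct4 replicate 1 (-0.23; adjusted p = 0.193) and with TMM scaling over all features (edgeR adjusted p = 0.0832). In Sox2, Klf4 and OSK the changes were 0.03 (95% interval -0.19 to 0.26), -0.09 (-0.32 to 0.13) and -0.04 (-0.26 to 0.19), with limma adjusted p of 0.829, 0.536 and 0.823. The 7 listed TXN pseudogenes held at most 6 reads together.

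TXN2, the mitochondrial thioredoxin, was nearly level across the controls and higher with Klf4. It had 698, 700.1 and 701 normalised counts in GFP, 690 and 627 in Oct4, 642 and 722 in Sox2, 951 and 854 in Klf4 and 835 and 821 in OSK. The Klf4 and OSK libraries were above all others. TXN2 rose by 0.36 in Klf4 (SE 0.08; limma adjusted p = 0.00255), a call lost without Klf4 replicate 1 (0.29; adjusted p = 0.0556). In OSK the change was 0.24 (limma adjusted p = 0.0272), and the call was lost in 9 of the 16 alternatives. Among these were fits without GFP replicate 2 (0.24; limma adjusted p = 0.0548) or 3 (0.24; adjusted p = 0.0564). Fits without OSK replicate 1 (0.23) or 2 (0.25) also lost it. So did TMM scaling over all features (edgeR adjusted p = 0.0954) and DESeq2 (adjusted p = 0.0689). Oct4 (-0.09, 95% interval -0.26 to 0.08; limma adjusted p = 0.43) and Sox2 (-0.04, -0.21 to 0.13; adjusted p = 0.736) did not pass.

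TXNRD1, the reductase that recharges TXN, fell in all 4 lines. It lies on the plus strand at chr12:104215779-104350307 (GENCODE 29, GRCh38). Its normalised counts were 17018, 17344 and 17728 in GFP, 11023 and 11293 in Oct4, 5025 and 5514 in Sox2, 7979 and 8595 in Klf4 and 6607 and 7374 in OSK. The GFP libraries stood above every other library, and Sox2 was lowest. The log2 change was -0.64 in Oct4 (SE 0.07; limma adjusted p = 2.99e-06), -1.72 in Sox2 (adjusted p = 2.85e-11), -1.07 in Klf4 (adjusted p = 1.31e-08) and -1.31 in OSK (adjusted p = 8.79e-10), and each call held in every alternative. The RPKM ratio of TXNRD1 to TXN went from 4.40 ± 0.113 in GFP (SD, n = 3) to 3.67 ± 0.462 in Oct4 (n = 2), 1.302 ± 0.00778 in Sox2, 2.25 ± 0.283 in Klf4 and 1.84 ± 0.403 in OSK. The ratio compares transcripts and was not tested.

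TXNRD1 is known as a target of the oxidant-sensing factor NRF2, which binds antioxidant response elements, so its start regions are shown with that core motif. The 250 bases before the RefSeq starts (GRCh38.p14, plus strand) lie at chr12:104215529-104215778 and chr12:104286782-104287031. Capitals mark TGACNNNGC, the antioxidant response element core, read on either strand, and in the second sequence also GGGNGTGG, a motif of KLF factors.
TXNRD1 start 1: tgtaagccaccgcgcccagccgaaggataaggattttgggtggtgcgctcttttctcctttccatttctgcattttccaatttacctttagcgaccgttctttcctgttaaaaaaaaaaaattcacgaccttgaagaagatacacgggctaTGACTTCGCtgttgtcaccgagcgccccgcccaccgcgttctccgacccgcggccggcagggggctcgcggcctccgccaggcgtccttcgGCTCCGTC
TXNRD1 start 2: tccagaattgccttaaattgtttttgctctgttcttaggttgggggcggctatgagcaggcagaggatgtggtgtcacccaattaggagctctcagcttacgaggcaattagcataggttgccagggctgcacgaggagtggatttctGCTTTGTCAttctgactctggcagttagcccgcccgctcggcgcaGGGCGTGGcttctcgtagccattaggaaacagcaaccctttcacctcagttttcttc
In the first sequence a core match lies at bases -99 to -91 from the start, and a second, on the other strand, spans -8 to 1, so its last base is past the printed stretch. In the second sequence the core lies at -102 to -94 on the other strand and the KLF motif at -57 to -50. The antioxidant core was found in 13.3% of 35116 RefSeq start windows (250 bases before and 50 after the start, both strands), and in 2 of the 14 windows of these genes, both of TXNRD1. The KLF motif was in 17.2% of windows and in 4 of the 14, belonging to TXN, TXNRD1 and 2 overlapping windows of the 3 of GPX4, which hold the same site. The octamer ATGCAAAT (1.77% of windows) and the SOX core CATTGT (10.8%) were in none of the 14, and the E-box CACGTG (7.26%) was in 1, that of GPX1 at -24 to -19. Windows were matched for 9 of the 10 genes, all but TXN2. A match is a description of letters and not a measured binding site.

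TXNIP, the binder of thioredoxin, rose in both lines given Klf4, alone and in OSK. Its normalised counts were 100.3, 133 and 108 in GFP, 114 and 190.0 in Oct4, 130.2 and 160.1 in Sox2, 702 and 451 in Klf4 and 616 and 506 in OSK. All 4 libraries of these lines stood above every other library. The log2 change was 2.31 in Klf4 (SE 0.21; limma adjusted p = 5.24e-07) and 2.30 in OSK (adjusted p = 3.72e-07). OSK and Klf4 differed by -0.01 (95% interval -0.51 to 0.49; limma adjusted p = 0.981), while OSK exceeded Oct4 by 1.92 and Sox2 by 1.94 (SE 0.23 each; adjusted p = 6.91e-06 and 5.99e-06). Likewise Oct4 lay below Klf4 by a log2 difference of -1.93 (limma adjusted p = 5.79e-06) and Sox2 by -1.96 (adjusted p = 5.03e-06). Oct4 did not pass (0.38, 95% interval -0.08 to 0.84; limma adjusted p = 0.186), though without Oct4 replicate 1 it did (0.75; adjusted p = 0.027). Sox2 did not pass either (0.35, -0.10 to 0.81; limma adjusted p = 0.21). The RPKM ratio of TXNIP to TXN was 0.0532 ± 0.0076 in GFP (n = 3), 0.286 ± 0.0679 in Klf4 (n = 2) and 0.268 ± 0.00141 in OSK. The summed cycling markers were also highest in Klf4 and OSK, and their part in the TXNIP change was not tested.

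TXNIP is known to be switched on by glucose through the factor MondoA with its partner MLX, which bind paired half-sites called carbohydrate response elements. The 250 bases before its first RefSeq start (GRCh38.p14, minus strand, chr1:145996580-145996829) are shown with a pair of CACGNG half-sites separated by 5 bases in capitals, together with the bases between them.
TXNIP start 1: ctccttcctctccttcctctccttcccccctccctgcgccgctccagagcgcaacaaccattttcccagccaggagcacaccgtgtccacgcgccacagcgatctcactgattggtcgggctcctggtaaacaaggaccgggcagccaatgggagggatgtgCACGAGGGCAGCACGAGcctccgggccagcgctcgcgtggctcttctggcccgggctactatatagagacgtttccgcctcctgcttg
The pair lies at bases -88 to -72. It occurred in 20 of the 35116 windows (0.057%), both strands, and in 1 of the 14 windows of these genes. This motif was added after the TXNIP sequence had been read, so its presence there is no finding. None of the motifs named for Oct4, Sox2 or Klf4 was found in either TXNIP window.

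Relatives of TXNIP in the arrestin-domain family and the MondoA and MLX factors were described beside it (8 genes, 7 tested). In Klf4 5 were higher and 1 lower, with a median log2 change of 0.73 against -0.02 over all genes. The called share was 14.3% in Oct4, 71.4% in Sox2, 85.7% in Klf4 and 57.1% in OSK, against 37.3%, 41.6%, 33.5% and 39.7% of all genes. ARRDC2, an arrestin-domain relative, went from 213 ± 21.1 normalised counts in GFP to 2372 ± 140 in Klf4 (log2 change 3.47, SE 0.12; limma adjusted p = 1.25e-11), and ARRDC3, another relative, from 283 ± 48.3 to 816 ± 59.9 (1.54, SE 0.15; adjusted p = 6.26e-07). In OSK 3 were higher and 1 lower, led by ARRDC2 (2.69; limma adjusted p = 1.3e-10) and MLX (1.00; adjusted p = 2.59e-07). The gene called lower in Klf4 and in OSK was MLXIP, which encodes MondoA (-0.46 and -0.55; limma adjusted p = 0.000807 and 0.000113). In Sox2 2 were higher and 3 lower, and in Oct4 only ARRDC2 passed, at -0.49 (limma adjusted p = 0.00468). In Sox2 ARRDC3 fell by 0.99 on the log2 scale (limma adjusted p = 4.23e-05). MLXIPL, a paralog of MondoA, was low, with 31.8 ± 32.7 normalised counts in GFP and 3.1 ± 1.97 in Sox2. Its change of -2.63 (limma adjusted p = 0.00291) was -1.84 without GFP replicate 1 (adjusted p = 0.00464). Without that library the Oct4 count was 1 higher and 2 lower.

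MSRB3, the methionine sulfoxide reductase, rose with Oct4 and Sox2 alone and had values near those of GFP in Klf4 and OSK. Normalised counts were 856, 941 and 921 in GFP, 2387 and 2496 in Oct4, 3391 and 3511 in Sox2, 1093 and 969 in Klf4 and 1176 and 1031 in OSK. The Oct4 and Sox2 libraries were above all others. The log2 change was 1.43 in Oct4 (SE 0.08; limma adjusted p = 1.04e-09) and 1.93 in Sox2 (adjusted p = 2.4e-11). Klf4 did not pass (0.19, 95% interval 0.02 to 0.35, not adjusted for the number of genes; limma adjusted p = 0.0847). OSK passed at 0.28 (limma adjusted p = 0.0091), but not without OSK replicate 1 (0.19; adjusted p = 0.164) or with TMM scaling over all features (edgeR adjusted p = 0.0717). OSK lay below Oct4 by 1.15 and below Sox2 by 1.65 on the log2 scale (SE 0.09 each; limma adjusted p = 3.09e-08 and 4.97e-10), although it also carried both factors. OSK and Klf4 differed by 0.10 (95% interval -0.09 to 0.28; limma adjusted p = 0.495). In OSK, POU5F1 and SOX2 had lower normalised counts than in the single lines, at most 19542 against at least 66823 for POU5F1 and at most 17764 against at least 29106 for SOX2, and the part of that in the MSRB3 difference was not tested. The gene lies on the plus strand at chr12:65278683-65466907 (GENCODE 29, GRCh38), and an antisense transcript overlaps 88 of its 7405 exon bases and had at most 10.4 normalised counts.

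OSK was then compared with the single-factor lines. Against Oct4, 8 of the 10 genes were called (background 40.3%), against Sox2 8 (40.5%) and against Klf4 4 (21.5%). Of these, 3, 3 and 2 held in every alternative. The calls lost in at least 1 alternative were GPX3, GPX7, GPX8, TXN and TXN2 against Oct4, GPX1, GPX4, GPX7, TXN2 and TXNRD1 against Sox2, and GPX8 and TXNRD1 against Klf4. TXNIP and MSRB3 differed from both Oct4 and Sox2 in every alternative and from Klf4 in none. TXNRD1 in OSK was lower than in Oct4 by 0.68 on the log2 scale (SE 0.08; limma adjusted p = 3.61e-06) and higher than in Sox2 by 0.41 (adjusted p = 0.000549), the latter lost with TMM scaling over all features (edgeR adjusted p = 0.0518). GPX3 in OSK was 1.25 above Sox2 (SE 0.08; limma adjusted p = 7.96e-09) and -0.64 from Klf4 (adjusted p = 3.69e-05). The TXNRD1 difference from Klf4 was small (-0.25; limma adjusted p = 0.0338) and was lost without Klf4 replicate 1 (-0.30; adjusted p = 0.0567) or 2 (-0.19; adjusted p = 0.215) and without OSK replicate 1 (-0.17; adjusted p = 0.305). Without OSK replicate 1 the calls of GPX8 (0.37; limma adjusted p = 0.113) and TXN (0.19; adjusted p = 0.309) against Oct4 and of GPX1 (0.33; adjusted p = 0.0552) and TXN2 (0.27; adjusted p = 0.0902) against Sox2 were also lost. Without both libraries that stood apart, GPX8 was called lower than in Sox2 (-0.43; limma adjusted p = 0.00907) and GPX1 lower than in Klf4 (-0.31; adjusted p = 0.0228). The single-factor lines also differed from each other, with 7 genes called between Oct4 and Sox2 (33.4%), 7 between Oct4 and Klf4 (41.7%) and 7 between Sox2 and Klf4 (40.8%).

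The OSK change was also set against what the 3 single-factor log2 changes add up to. The difference passed the test for 5 of the 10 genes, against 35.9% of all genes. For GPX3 the sum was -5.02 and the OSK change -1.36, a difference of 3.65 (SE 0.15; limma adjusted p = 2.08e-10). For TXNRD1 the sum was -3.43 and OSK -1.31, a difference of 2.11 (SE 0.14; adjusted p = 1.89e-08). For MSRB3 the sum was 3.55 and OSK 0.28, a difference of -3.26 (SE 0.16; limma adjusted p = 6.23e-10). In all of these OSK was nearer to GFP than the sum, as it was for GPX8 (-1.25; limma adjusted p = 0.00197) and GPX4 (0.60; adjusted p = 0.00884), the last lost with TMM scaling over all features (edgeR adjusted p = 0.193). TXNIP did not pass (-0.75, 95% interval -1.66 to 0.17; limma adjusted p = 0.197), though it did without Oct4 replicate 1 (-1.11; adjusted p = 0.0434). GPX7 did not pass (-2.16; limma adjusted p = 0.135) but did without GFP replicate 1 and OSK replicate 1 (-3.11; adjusted p = 0.0355). GPX1 did not pass either (-0.31; limma adjusted p = 0.194) but did without GFP replicate 2 (-0.50; adjusted p = 0.0253). TXN2 had a difference of 0.01 (-0.34 to 0.35; limma adjusted p = 0.98). The sum uses the GFP libraries 3 times, and the doses of POU5F1 and SOX2 were lower in OSK, whose part was not tested.

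**Figure D4:**
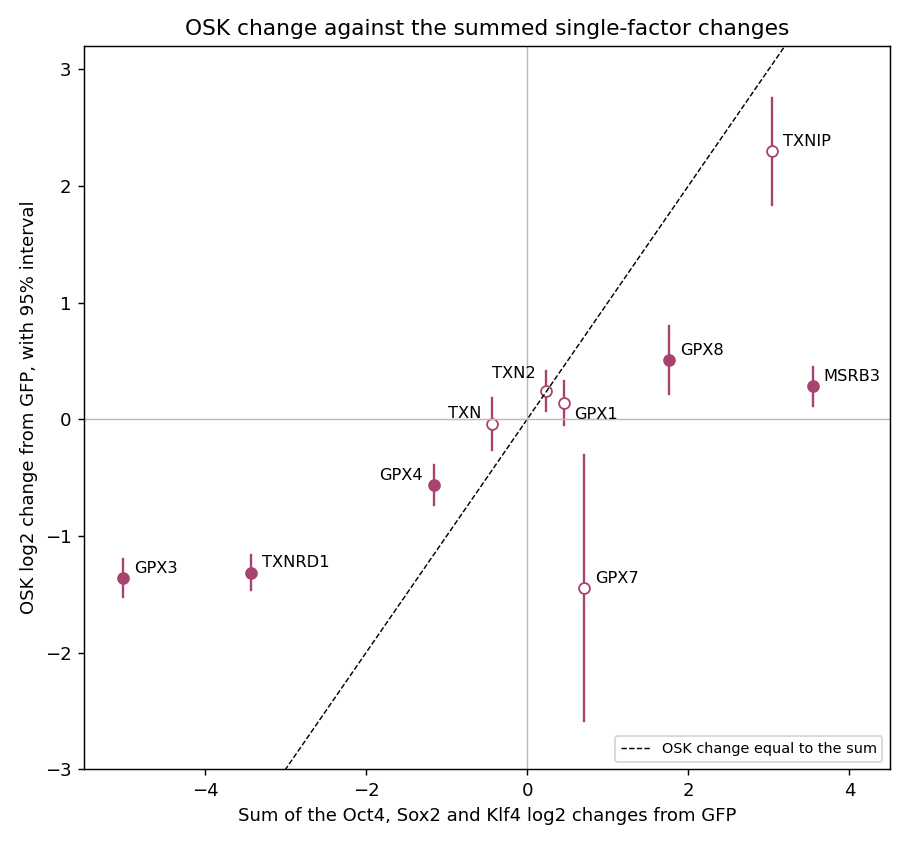
Log2 change of OSK from GFP (vertical axis) against the summed log2 changes of the 3 single-factor lines (horizontal axis) for the 10 genes, with the line of equality. Filled points passed limma at an adjusted p-value of 0.05 for the difference. GPX3 (-5.02 against -1.36), TXNRD1, MSRB3 and GPX7 lie far from the line, GPX7 with an open point, and TXN2 lies on it. Vertical bars are 95% intervals of the OSK change and not of the difference.

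Genes that feed glutathione to the peroxidases were described next (9 genes, 8 tested). In Oct4 4 were higher and 2 lower, in Sox2 5 and 2, in Klf4 4 and 2 and in OSK 4 and 1, with medians of 0.51, 0.44, 0.21 and 0.48 on the log2 scale against -0.02 to -0.01 over all genes. The called genes made up 75%, 87.5%, 75% and 62.5% of those tested, against 37.3%, 41.6%, 33.5% and 39.7% of all genes. Without GFP replicate 1 the Sox2 count was 4 higher and 2 lower and the Klf4 count 3 and 3, and without OSK replicate 1 as well the Oct4 count was 3 and 2 and the OSK count 3 and 1. SLC7A11, the cystine transporter, went from 25.8 ± 3.87 normalised counts in GFP to 205 ± 0.127 in Sox2 (2.95, SE 0.22; limma adjusted p = 1.99e-08), with 1.45 in Klf4 and 2.55 in OSK. In Oct4 SLC7A11 did not pass (-0.02; limma adjusted p = 0.95). Its partner subunit SLC3A2 fell from 13404 ± 926 to 2829 ± 285 in Sox2 (-2.25, SE 0.08; limma adjusted p = 4.75e-12). SLC3A2 was also called lower in Oct4 (-1.65), Klf4 (-0.57) and OSK (-1.17). GCLM, a subunit of the enzyme that starts glutathione synthesis, rose by 1.84 in Oct4 (SE 0.09; limma adjusted p = 3.71e-10). It was also called higher in Sox2 (0.72), Klf4 (0.43) and OSK (0.78). GCLC, the other subunit of that enzyme, was called lower in Oct4 (-0.37; limma adjusted p = 0.00365), Sox2 (-0.30; adjusted p = 0.0127) and Klf4 (-0.475; adjusted p = 0.000618). In OSK GCLC did not pass (0.19; limma adjusted p = 0.11). GSR, which regenerates glutathione, rose by 1.28 in OSK (limma adjusted p = 1.4e-09), 1.38 in Oct4 (adjusted p = 6.78e-10) and 0.39 in Klf4 (adjusted p = 0.000557). In Sox2 GSR did not pass (0.05; limma adjusted p = 0.624). CHAC1, which degrades glutathione, was 0.97 higher in Klf4 (limma adjusted p = 0.0389) but not without GFP replicate 1 (0.97; adjusted p = 0.0503).

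Other peroxidase, thioredoxin, glutaredoxin and methionine sulfoxide reductase genes (21, of which 19 were tested) were called 0 higher and 7 lower in Oct4, 2 and 5 in Sox2, 2 and 1 in Klf4 and 6 and 3 in OSK. Their medians were -0.05, -0.08, 0.13 and 0.10 on the log2 scale. The called shares, 36.8%, 36.8%, 15.8% and 47.4%, stood beside 37.3%, 41.6%, 33.5% and 39.7% of all genes, so that in Oct4, Sox2 and Klf4 the list was called no more often than the background. Without GFP replicate 1 the Oct4 count was 0 higher and 6 lower and the OSK count 6 and 4, and without OSK replicate 1 as well the Sox2 count was 2 and 4 and the OSK count 5 and 2. GLRX, a cytosolic glutaredoxin, went from 151 ± 3.62 normalised counts in GFP to 1080.2 ± 54.3 in OSK (2.83, SE 0.14; limma adjusted p = 2.62e-10), and in Sox2 to 114 ± 1.80 (-0.40; adjusted p = 0.0274). The mitochondrial reductase TXNRD2 rose by 0.56 in Sox2 (limma adjusted p = 0.000206), 0.72 in Klf4 (adjusted p = 2.62e-05) and 0.60 in OSK (adjusted p = 0.000108). TXNRD1 fell in these lines and also in Oct4, where TXNRD2 did not pass (-0.12; limma adjusted p = 0.359). SRXN1, which repairs overoxidised peroxiredoxins, fell by 0.92 on the log2 scale in Oct4 (limma adjusted p = 0.00903), and the mitochondrial glutaredoxin GLRX2 by 0.70 (adjusted p = 3.05e-05). PRDX5, a peroxiredoxin, rose by 0.87 in Klf4 (limma adjusted p = 1.45e-06), 0.43 in Sox2 (adjusted p = 0.000994) and 0.57 in OSK (adjusted p = 7.84e-05). NXN, a thioredoxin relative, fell by 0.46 on the log2 scale in Sox2 (limma adjusted p = 0.00101), and the mitochondrial methionine sulfoxide reductase MSRB2 by 0.85 in OSK (adjusted p = 0.00421).

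The machinery that inserts selenocysteine into GPX1, GPX3, GPX4 and TXNRD1 (10 genes, all tested) was called 2 higher and 3 lower in Oct4, 3 and 3 in Sox2, 0 and 3 in Klf4 and 3 and 2 in OSK. These were 50%, 60%, 30% and 50% of the list, against 37.3%, 41.6%, 33.5% and 39.7% of all genes, and the median log2 changes were -0.02, -0.09, -0.12 and 0.04. Without GFP replicate 1 the Oct4 count was 2 higher and 2 lower, the Sox2 count 2 and 3 and the Klf4 count 0 and 4, and without OSK replicate 1 as well the OSK count was 3 and 1. SECISBP2L, a paralog of the protein that reads the selenocysteine signal, rose by 1.35 in Oct4 (limma adjusted p = 7.78e-10), and SEPHS2, which makes the selenium donor, fell by 0.43 on the log2 scale there (adjusted p = 5.73e-05) and by 0.71 in Sox2 (adjusted p = 1.96e-07). RPL30, a ribosomal protein linked to selenocysteine reading, fell by 0.71 in Sox2 (limma adjusted p = 1.09e-06), and PSTK, a kinase of the pathway, by 0.54 in Klf4 (adjusted p = 0.00706). PSTK was also called lower in Sox2 (-0.49; limma adjusted p = 0.011) and Oct4 (-0.41; adjusted p = 0.0323), the latter not without GFP replicate 1 (adjusted p = 0.0536). Around GPX7 and GPX8, 12 genes of oxidative folding in the ER were called 6 higher and 0 lower in Oct4 and in Sox2, 2 and 1 in Klf4 and 7 and 2 in OSK. These were 50%, 50%, 25% and 75% of the list, against the same shares of all genes, and the medians were 0.25, 0.26, 0.12 and 0.29. ERP44, which retains folding enzymes, rose in every factor line. The change was 0.52 in Oct4 (limma adjusted p = 8.15e-05), 0.81 in Sox2 (adjusted p = 6.38e-07), 0.64 in Klf4 (adjusted p = 1.35e-05) and 0.80 in OSK (adjusted p = 8.65e-07). PRDX4, the ER peroxiredoxin, rose by 1.00 in Oct4 (limma adjusted p = 1.71e-06) and the oxidase ERO1A by 0.76 (adjusted p = 1.12e-06). TXNDC5, a disulfide isomerase, fell by 1.05 on the log2 scale in Klf4 (limma adjusted p = 0.000318) and by 1.65 in OSK (adjusted p = 2.36e-06). Without GFP replicate 1 and OSK replicate 1 the OSK count of the folding genes was 4 higher and 2 lower, and without GFP replicate 1 alone the counts of Oct4, Klf4 and OSK were 6 and 1, 1 and 1, and 6 and 2.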

How the data were processed

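Polyadenylated RNA libraries had been made with a NEBNext kit after TRIzol extraction, per the labels' protocols. STAR 2.7.1a and featureCounts 1.6.2, and human and mouse builds (GRCh38 and GRCm38), are named in the submitters' processing notes, without roles; use of strand is not given in the sources used here. The deposited values are a signal in normalised counts: in every library 100% of the values no higher than 200 were, within 0.0061, an integer times the worth of 1 read, so each library's counts appear divided by a single factor. For GFP replicates 1 and 2 that value (0.993 and 1.01) is so near 1 that low values separate it poorly from whole numbers. Whole reads were recovered by division. They gave RPKM over GENCODE 29 exon lengths, which ignores isoforms, and the depth, which limits precision for GPX7 most.

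The main test was limma 3.58.1 (R 4.3.3; lmFit, eBayes with trend) on log2(value + 1) over genes that reached 10 in 2 or more libraries. The 11 libraries were fitted jointly, with a mean for each group (6 residual and 9.21 prior degrees of freedom), with Benjamini-Hochberg adjustment over the 18828 genes tested. Samples were grouped by title. Alternatives were edgeR 4.0.16 and DESeq2 1.42.0 on recovered reads with other scalings, pseudocounts of 0.5 and 5, no filter, a filter at a mean CPM of 1, fits of the compared groups alone, a replicate block and leaving out libraries. The lists without GFP replicate 1 and OSK replicate 1 were added after seeing the data. The members and lists were chosen with earlier results of these data known. All 10 genes were named, and of each list at most 2 genes per comparison with GFP, those with the largest called log2 changes. GCLC and MLXIP were named in addition, to show changes in the other direction. Further comparisons of a named list gene are given for context and not in full. Protein sequences were not used here.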

Additional observations from a re-analysis of the deposited data

How the results depend on the processing

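The 110 results on the 10 genes were recomputed in 1708 alternatives. Of these 1572 kept direction and side of the threshold, 100 lost the call, 10 gained it, 0 reversed a call and 26 changed sign with no call in either fit. With TMM scaling over all features in edgeR, the number of genes called was 5 of 10 for OSK against GFP, 5 for OSK against Oct4 and 4 for OSK against Sox2, where it had been 8 in each. Without GFP replicate 1 and OSK replicate 1 it was 5 for OSK against GFP. Leaving out each replicate in turn gave 5 to 7 for OSK against GFP (lowest without OSK replicate 1), 5 to 7 against Oct4 (without Oct4 replicate 1), 5 to 7 against Sox2 (without Sox2 replicate 1 or OSK replicate 2) and 2 to 3 against Klf4 (without Klf4 replicate 1). With the replicate block it was 5, 5, 7 and 6 for Oct4, Sox2, Klf4 and OSK against GFP, 8, 8 and 4 for OSK against Oct4, Sox2 and Klf4, 6, 7 and 7 between the single lines and 5 against the sum. Whether the replicate numbers pair the samples could not be decided. Deviations from the group means of same-numbered libraries correlated at -0.07 to 0.44 (20 pairs) and those of other pairs at -0.44 to 0.34 (28 pairs). In a group of 2 the deviations mirror each other, so many of the other pairs repeat the same values with the sign changed. The highest value, 0.44, was between GFP replicate 1 and OSK replicate 1. Under a mean CPM of at least 1, GPX7 was not tested. Causes of the lost calls were not tested. With 2 libraries in most groups, a fit without a library leaves 1, which is assumed to vary like the rest.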
